A study of Mus musculus with 31 samples.

Results

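Immediate early genes are switched on within minutes of neuronal firing, without the need for new protein, and their transcripts are short-lived. The 10 genes examined here were Fos, Fosb, Junb, Arc, Egr1, Egr2, Npas4, Nr4a1, Bdnf and Dusp1. They were named by symbol as genes known to follow neuronal activity, a rule that uses no measured value, although the choice was made with earlier results of these data known. Each was matched through its Ensembl identifier to 1 row of a hippocampal table of 48795 genes. RNA-seq had been run on bulk hippocampi of 6 P301S mice and 7 non-transgenic (Ntg) mice, 1 library per mouse, and on 18 libraries of cultured primary microglia, wild-type (WT) or Cgas knockout (Cgas KO), each given vehicle, fibrils of tau or a herring testis DNA (HT-DNA), in 6 groups of 3. The methods place RNA isolation from microglia 6 h after stimulation. P301S mice (numbers 29, 36, 43, 63, 65 and 77, 3 females and 3 males) carry human tau with the P301S mutation under the mouse prion promoter, and Ntg mice (numbers 35, 46, 55, 61, 62, 68 and 71, 3 females and 4 males) lack it. Both groups were aged 8 to 9 months by the labels and by the study's description of this experiment, whereas its methods give an older age for RNA-seq. The colony came from crosses of P301S with Cgas-/- mice, and the Cgas genotype of these 13 mice was not given with their libraries. According to the methods, mice of this colony had been through behavioural testing before their brains were perfused and dissected, and what the animals did in the hours before was not stated.

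In neurons, calcium entering through synaptic receptors and voltage-gated channels reaches the nucleus through calmodulin-dependent kinases and the MAP kinase cascade. The transcription factor CREB, bound to the cyclic AMP response element (CRE), and SRF with its Elk partners, bound to the CArG box, then start transcription of this group of genes. Fos, Fosb, Junb, Egr1, Egr2, Npas4 and Nr4a1 encode transcription factors that act on a later set of genes, whereas Arc, Bdnf and Dusp1 encode effectors at the synapse, outside the cell and in the kinase cascade. Many of these genes are also induced outside the brain by growth factors, stress and immune stimuli, whereas Npas4 is largely restricted to neurons.

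RefSeq start sites were at hand for 8 of the 10 genes, all but Arc and Egr1. The 250 bases before the start are shown for 4 genes with different arrangements of CRE letters and with values described further on (RefSeq, build GRCm38.p6, 5′ to 3′ on the strand of the gene). The sequence of Fos is chr12:85473640-85473889 (plus strand), that of Nr4a1 chr15:101266596-101266845 (plus strand), that of Dusp1 chr17:26508473-26508722 (minus strand) and that of Npas4 chr19:4989972-4990221 (minus strand). Capitals mark the CRE core TGACG on either strand, where it reads CGTCA on the other, the whole CRE TGACGTCA, and the TATA box TATAAA.
Fos: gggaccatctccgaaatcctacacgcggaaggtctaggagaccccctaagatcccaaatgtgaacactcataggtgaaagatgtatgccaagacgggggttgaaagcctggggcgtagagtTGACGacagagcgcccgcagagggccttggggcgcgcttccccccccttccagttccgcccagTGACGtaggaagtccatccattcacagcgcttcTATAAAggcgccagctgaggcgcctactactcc
Nr4a1: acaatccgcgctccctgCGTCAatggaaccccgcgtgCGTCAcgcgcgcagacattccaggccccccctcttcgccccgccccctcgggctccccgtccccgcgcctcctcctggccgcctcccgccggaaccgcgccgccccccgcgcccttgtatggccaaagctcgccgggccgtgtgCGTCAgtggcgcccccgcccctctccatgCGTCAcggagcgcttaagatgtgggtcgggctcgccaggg
Dusp1: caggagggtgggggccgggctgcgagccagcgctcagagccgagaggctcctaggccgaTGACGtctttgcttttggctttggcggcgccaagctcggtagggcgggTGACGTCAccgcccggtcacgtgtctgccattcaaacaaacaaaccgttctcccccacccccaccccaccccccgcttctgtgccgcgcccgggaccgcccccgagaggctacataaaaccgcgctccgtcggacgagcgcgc
Npas4: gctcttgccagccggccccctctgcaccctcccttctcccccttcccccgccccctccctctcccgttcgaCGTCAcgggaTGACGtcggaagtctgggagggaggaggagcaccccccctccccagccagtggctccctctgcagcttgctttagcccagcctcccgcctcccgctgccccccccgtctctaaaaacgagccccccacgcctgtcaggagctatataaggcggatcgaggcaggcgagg

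The Fos sequence held 2 CRE cores, the nearer beginning 66 bases before the start, and a TATA box that began 33 bases before it. Nr4a1 had 4 CRE cores, more than any other of the 8 genes in a single window, and the nearest began 40 bases before the start. In Dusp1 a whole CRE began 143 bases before the start, and its letters hold 2 of the 3 CRE cores counted there. Npas4 carried 2 cores close together, which began 179 and 169 bases before the start. The starts used for Nr4a1 and Npas4 lie inside the spans of these genes given further on, not at their outer ends. Fosb and Junb had 1 core each, 3 of 5 Egr2 starts and 1 of 7 Bdnf starts had a core, and 4 of the 5 Egr2 starts had a CArG box (2 C, 6 A or T, 2 G). Over all 32851 RefSeq windows of the same length, 17.8% held a core, 1.55% a whole CRE, 1.47% a CArG box and 12.4% a TATA box on either strand, whereas the EGR site GCGTGGGCG stood in 0.536% of them and in none of the windows of these 8 genes. These are matches of letters and do not show that a factor is bound.

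Between 25953296 and 35779977 reads per hippocampus were counted on genes, and the 10 genes had between 39 and 10182 reads in a mouse. All 10 passed the filter on low counts, together with 16453 of 48795 genes. Values are normalized CPM, counts divided by the library size after TMM scaling and set to a common total, and are not compared between genes. Mapt, the tau gene, ranged from 519 to 642 CPM in Ntg and from 858 to 1120 CPM in P301S mice, and Ddx3y of the Y chromosome matched every labelled sex, with at most 0.377 CPM in females and at least 43 CPM in males. Fewer cells of a type and less RNA per cell cannot be told apart in bulk tissue.

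The first comparison asked whether the activity genes differ between P301S and Ntg hippocampi. No gene of the group was called, where a call is an adjusted p under 0.05 in edgeR's quasi-likelihood test with Benjamini-Hochberg adjustment over all genes tested. In the same test 249 genes, 1.51% of those tested, were called, 229 of them higher and 20 lower in P301S mice. DESeq2 likewise called 0 of the 10, where it called 911 genes in all. In edgeR 2 of the 10 (Fos and Dusp1) had an unadjusted p under 0.05. So did 2612 of all 16453 genes tested, and 2 of 10 is near that share. The fitted log2 fold change was above 0 for 9 of the 10, with a median of 0.42, whereas the median over all tested genes was 0.00 and 50.4% of them were above 0. The P301S and Ntg mice overlapped for all 10 genes, while 0.608% of all tested genes had groups that did not overlap. The genes moved together across mice, as described further on, so they are not 10 separate observations.

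**Figure D1:**
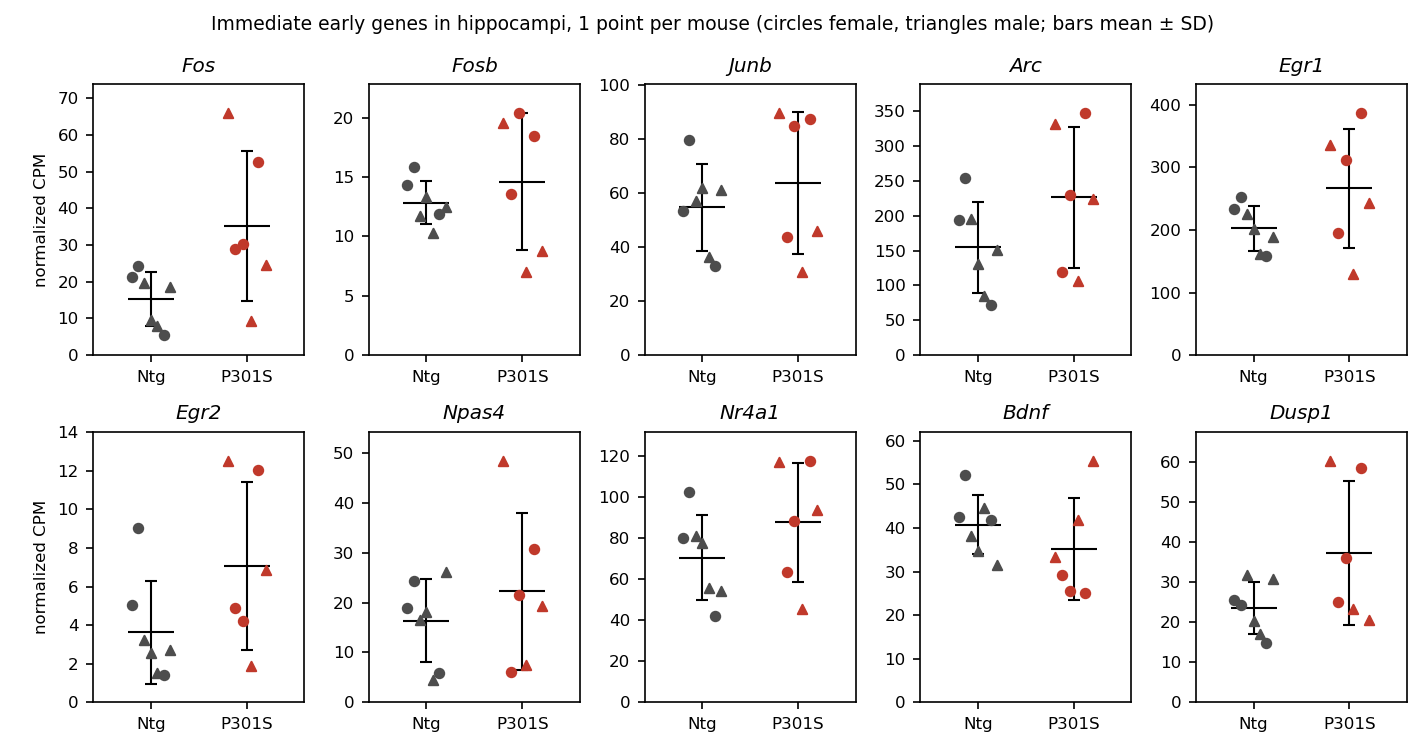
Normalized CPM (y axis, linear from 0, own scale for each gene) of the 10 genes in 7 Ntg and 6 P301S hippocampi, 1 point per mouse, circles for females and triangles for males, with the mean and SD as bars. The groups overlap in every panel, and the SD is larger in P301S mice, a difference that was not tested.

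Fos (chr12:85473890-85477274) encodes the AP-1 subunit most used as a marker of recent firing. Its level was 5.54, 18.5 and 24.2 CPM (lowest, median and highest) in Ntg mice and 9.30, 29.7 and 65.8 CPM in P301S mice. All P301S mice except mouse 63 lay above the highest Ntg mouse, and mouse 63 lay within the Ntg range. The mean was 15.3 ± 7.36 CPM (SD, n = 7) in Ntg and 35.3 ± 20.4 CPM (SD, n = 6) in P301S mice, a log2 fold change of 1.20 (SE 0.41, 95% interval 0.32 to 2.09, adjusted p = 0.155). An exact two-sided permutation test over the 1716 regroupings of the mice gave p = 0.0408, not adjusted over the 10 genes, and the smallest p it could give was 0.000583. Without P301S mouse 63 Fos was called (1.40, adjusted p = 0.0438), in a fit that called 691 genes against 249 with every mouse. Without P301S mouse 29 Fos was at 0.93. Over the 13 fits that left out 1 mouse its adjusted p lay between 0.0438 and 0.380.

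The other AP-1 subunits in the group had fitted values nearer 0. Fosb (chr7:19302696-19310118), whose truncated product ΔFosB is known to persist after repeated activity, ranged from 10.3 to 15.8 CPM around a median of 12.4 in Ntg mice and from 7.02 to 20.3 CPM around a median of 16 in P301S mice. P301S mice lay on both sides of the Ntg range, with 3 above every Ntg mouse and 2 below every one, and the log2 fold change was 0.18 (SE 0.22, adjusted p = 0.761). Junb (chr8:84976909-84978748), a Jun-family partner of Fos proteins, spanned 32.9, 57.0 and 79.7 CPM in Ntg and 30.7, 65.3 and 89.3 CPM in P301S mice (lowest, median and highest). For Junb 3 P301S mice were above every Ntg mouse and 1 was below every one, with a log2 fold change of 0.22 (SE 0.26, adjusted p = 0.761).

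Egr1 (chr18:34861207-34864956), a zinc finger factor linked to the maintenance of long-term potentiation, had a lowest, median and highest level of 158, 202 and 252 CPM in Ntg mice. The same values were 129, 277 and 386 CPM in P301S mice. The P301S mice included the 3 highest of the 13 and the single lowest, and the log2 fold change was 0.39 (SE 0.21, 95% interval -0.05 to 0.84, adjusted p = 0.388). Egr2 (chr10:67534469-67542188), a relative known also for its part in myelination by Schwann cells, was measured at 1.41, 2.73 and 9.01 CPM in Ntg and 1.91, 5.86 and 12.5 CPM in P301S mice. For Egr2 2 P301S mice exceeded every Ntg mouse, and the log2 fold change of 0.95 had the interval -0.06 to 1.96 (SE 0.47, adjusted p = 0.350).

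Npas4 (chr19:4984353-5003439), a neuron-restricted factor that adjusts inhibitory synapses to activity, varied most between mice of 1 genotype, with a within-genotype SD of 1.07 on the log2 scale. Its lowest, median and highest levels were 4.45, 18.2 and 26.1 CPM in Ntg and 6.14, 20.4 and 48.4 CPM in P301S mice. For Npas4 2 P301S mice were above every Ntg mouse and none was below every Ntg mouse, and the log2 fold change was 0.44 (SE 0.48, 95% interval -0.59 to 1.48, adjusted p = 0.730). Nr4a1 (chr15:101253902-101274795), an orphan nuclear receptor, lay between 42.0 and 102 CPM in Ntg mice and between 45.6 and 118 CPM in P301S mice. Its medians were 77.8 and 91.1 CPM, and the log2 fold change was 0.31 (SE 0.23, adjusted p = 0.573).

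Among the effectors, Arc (chr15:74669081-74672570) encodes a protein that travels to active synapses and promotes the removal of AMPA receptors. Its lowest, median and highest levels were 72.3, 151 and 254 CPM in Ntg and 107, 227 and 347 CPM in P301S mice. For Arc 2 P301S mice were above every Ntg mouse and none below, with a log2 fold change of 0.55 (SE 0.33, 95% interval -0.15 to 1.24, adjusted p = 0.455). Dusp1 (chr17:26505591-26508472), a phosphatase that switches off MAP kinases, had 14.7, 24.3 and 31.9 CPM in Ntg and 20.5, 30.5 and 60.2 CPM in P301S mice. For Dusp1 3 P301S mice exceeded every Ntg mouse, and the log2 fold change of 0.66 had an interval above 0 before adjustment (0.08 to 1.25) and an adjusted p of 0.242. The exact permutation test gave p = 0.0915 for Dusp1.

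Bdnf (chr2:109674700-109727043), the secreted neurotrophin that acts through the receptor TrkB, was the only gene of the group with a fitted value below 0. Its lowest, median and highest levels were 31.4, 41.7 and 52.1 CPM in Ntg and 25.2, 31.3 and 55.4 CPM in P301S mice. The P301S mice included the 3 lowest levels of all and also the highest, and the log2 fold change was -0.22 (SE 0.18, 95% interval -0.60 to 0.17, adjusted p = 0.621).

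**Figure D2:**
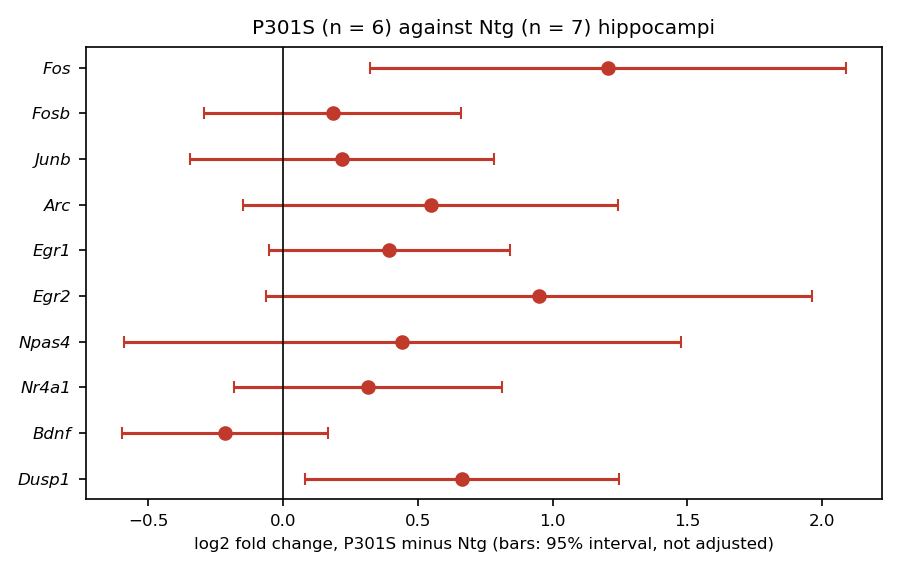
Fitted log2 fold change (x axis, P301S minus Ntg) of each gene (y axis) with its 95% interval, not adjusted for the number of genes. The intervals of Fos and Dusp1 lie above 0, the others include 0, and Bdnf alone has its point below 0.

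The levels also differed between single mice of a genotype. P301S mice 29 and 65 were each among the 3 highest of the 13 mice for 9 of the 10 genes, and each was above every Ntg mouse for the same number, 9. For both mice the exception was Bdnf. Mouse 43 exceeded every Ntg mouse for 5 genes, mouse 77 for 2, mouse 36 for 1 and mouse 63 for none. Mouse 63 was among the 3 lowest of the 13 for 7 genes, as were Ntg mice 62 and 68 for 8 genes each. Among Ntg mice, mouse 46 came highest, among the first 3 for 4 genes.

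**Figure D3:**
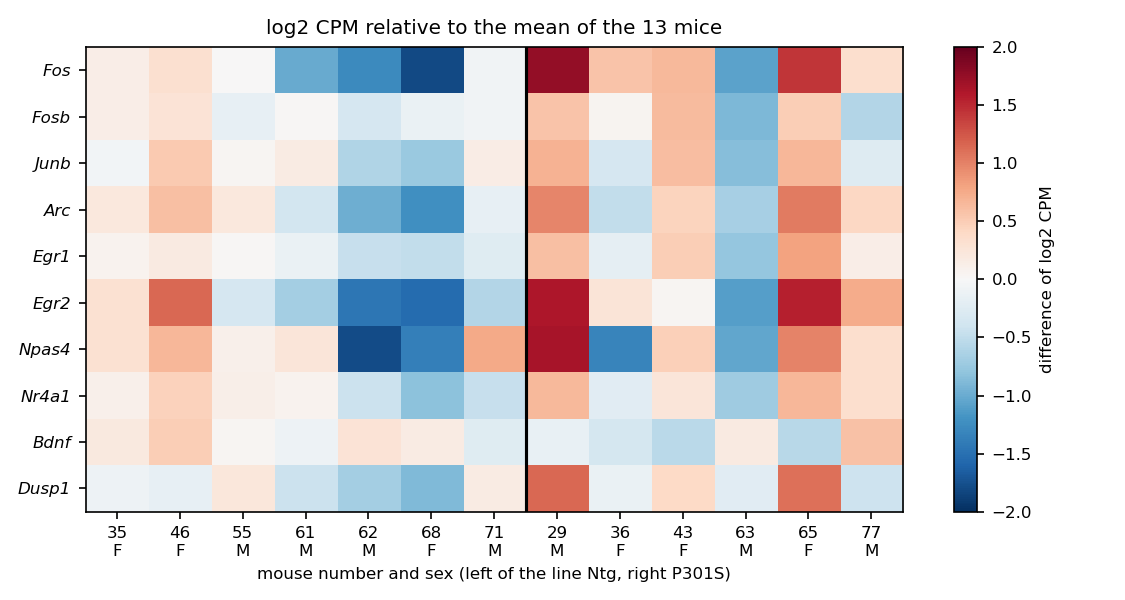
log2 CPM of the 10 genes (rows) in the 13 mice (columns, with mouse number and sex), as the difference from the gene's mean over the mice. P301S mice 29 and 65 are red for every gene but Bdnf, and Ntg mice 62 and 68 and P301S mouse 63 are blue for every gene but Bdnf.

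The ratio of the highest to the lowest mouse ran from 2.20 for Bdnf to 11.9 for Fos. After the mean of each genotype was removed, the within-genotype SD of each gene exceeded that of 90.0% to 99.1% of the genes with a mean level within 2-fold of its own. The SD of the log2 CPM was larger among P301S than among Ntg mice for all 10 genes, for example 0.65 against 0.20 for Fosb, 0.58 against 0.26 for Egr1 and 0.99 against 0.83 for Fos. The difference in spread was not tested. The share of all tested genes with a larger SD in P301S mice is not given here, so the wider spread cannot be called particular to these genes.

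With the mean of each genotype subtracted, the ranks of the 13 mice together were alike for 9 of the genes and not for Bdnf. Spearman's rho over the 13 mice between a gene and the mean of the other 9 was 0.97 for Fos, 0.94 for Arc, 0.91 for Egr1 and 0.90 for Nr4a1, and 0.69 for Fosb, the lowest of these 9. It was -0.30 for Bdnf. The 36 pairs without Bdnf had a median rho of 0.79 (0.52 to 0.95), and the 9 pairs with Bdnf had a median of -0.29 (-0.54 to 0.02). The values of a mouse come from the same library, and these correlations are descriptions of 13 mice.

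Of 16443 other genes, Btg2, an antiproliferative immediate early gene, followed the mean of the 10 most closely (rho 0.92). Sik1, a salt-inducible kinase that restrains CREB coactivators, reached 0.89, and Ier2, a short immediate early nuclear protein, 0.88. Trib1, Gadd45b, Egr4 and Arl4d, also on the list of rapid activity-regulated genes, were among the 50 genes most alike, with rho from 0.79 to 0.80. The 8 genes outside every list with the highest likeness were Gm11762, Nadk, Tcirg1, Akt2, Poli, BC030499, Arhgap45 and Ptgs1, with rho from 0.83 to 0.90. Tmem119, a microglial marker, had a rho of 0.85. The median rho was 0.53 for the 26 rapid genes, 0.20 for 14 delayed genes, 0.13 for 19 upstream regulators and 0.02 for all other genes.

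Other properties of the libraries were set beside this order of mice. The summed level of 7 microglial markers was 337 to 420 CPM in Ntg mice and 336 to 727 CPM in P301S mice, with mice 29, 36 and 65 at 727, 725 and 712 CPM. The summed level of 5 astrocyte markers was 1330 to 1520 CPM in Ntg and 1340 to 4440 CPM in P301S mice, and Gfap, the astrocyte intermediate filament, was the only one called of 76 tested genes on 15 marker and control lists (log2 fold change 2.22, adjusted p = 0.0206). P301S mouse 36 was as high in both sums as mice 29 and 65, and mouse 43 had the lowest of both sums among P301S mice. The median rank for the activity genes was 1.5 for mouse 29, 2 for mouse 65, 9 for mouse 36 and 3.5 for mouse 43. The relation of these sums to the ranks was not tested.

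The 7 neuron markers summed to 7630 to 9860 CPM in Ntg and 6730 to 9120 CPM in P301S mice, and none was at 0. CA1 markers summed to 652 to 1110 CPM in Ntg and 310 to 878 CPM in P301S mice, lowest in mouse 63. The sums were 145 to 442 and 139 to 372 CPM for dentate granule markers, and 108 to 332 and 117 to 321 CPM for CA3 markers. Choroid plexus markers summed to 422 to 3850 CPM in Ntg and 94.8 to 5430 CPM in P301S mice. With the genotype mean removed, rho with the activity genes was -0.30 for neuron markers, 0.46 for microglial markers, 0.27 for astrocyte markers, 0.56 for endothelial markers, 0.03, -0.01 and -0.09 for markers of dentate granule, CA1 and CA3 neurons, 0.16 for clock genes, 0.01 for glucocorticoid-response genes and 0.19 for heat-shock genes. It was -0.06 for depth and -0.45 for the mitochondrial share, which was 3.78% to 5.58% in Ntg and 2.85% to 5.26% in P301S mice. The part of these properties in the levels of the activity genes was not tested, except for neuron markers as a covariate of the genotype comparison. With that covariate the log2 fold change was 1.03 for Fos (adjusted p = 0.290), 0.63 for Dusp1, 0.75 for Egr2, 0.47 for Arc, 0.37 for Egr1, 0.29 for Npas4, 0.24 for Junb and for Nr4a1, 0.20 for Fosb and -0.31 for Bdnf, so each gene kept its sign and none was called. The value of Npas4 had been 0.44 without it.

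Other genes known to follow neuronal activity, rapid or delayed, and upstream regulators were read from 3 lists. Of 26 other rapid genes 17 had a fitted value above 0, the median was 0.14, and 2 were called, both higher. Atf3, a stress-responsive bZIP factor, ranged from 0.455 to 0.842 CPM in Ntg and from 0.771 to 6.71 CPM in P301S mice (log2 fold change 2.42, SE 0.39, adjusted p = 0.0169). Its level was lowest among P301S mice in mouse 43 and second highest in mouse 36, an order unlike that of Fos. Maff, a small Maf protein, lay between 0.434 and 0.859 CPM in Ntg and between 0.890 and 3.97 CPM in P301S mice, without overlap (1.52, SE 0.32, adjusted p = 0.0349). For Maff too mouse 36 was second highest, at 2.435 CPM. Both calls were lost with the neuron marker covariate (log2 fold change 1.96 and adjusted p = 0.0635 for Atf3, 1.15 and 0.111 for Maff), and Maff was also lost with sex as a covariate (adjusted p = 0.0509). Of the 13 fits that left out 1 mouse, Maff was not called in 9, those without Ntg mouse 35, 46, 61, 62, 68 or 71 or P301S mouse 29, 36 or 65, with adjusted p up to 0.0917. Atf3 was not called in 3, without Ntg mouse 35, Ntg mouse 61 or P301S mouse 36, with adjusted p up to 0.0584. These losses came with fewer calls over all genes: 249 in the main fit, 13 with neuron markers and 138 with sex as a covariate. The 9 fits without a call of Maff called 14 to 26 genes in all. Over the 13 fits the log2 fold change was 1.19 to 1.67 for Maff and 2.18 to 2.63 for Atf3.

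No delayed activity-regulated gene was called of 14 tested, 5 of them with a value above 0 and a median of -0.07. The 3 with the smallest p were Baz1a, a chromatin remodelling subunit, at 0.71 (adjusted p = 0.131), Homer1, a postsynaptic scaffold, at -0.25 (adjusted p = 0.178), and Sorcs3, a sorting receptor, at -0.25 (adjusted p = 0.290). No upstream regulator was called of 19 tested, 5 of them above 0 and with a median of -0.14. Camk2a, the main calcium-dependent kinase of synapses, stood at -0.45 (adjusted p = 0.132) and Mef2d, a calcium-regulated factor, at -0.20 (adjusted p = 0.185). DESeq2 called 0 delayed genes and 2 regulators, where it called 911 of all 16453 genes tested.

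The next comparison asked whether the genotype difference depended on sex. No gene was called for the interaction of sex with genotype by edgeR (0% of 16453 tested), although 3897 (23.7%) had an unadjusted p under 0.05 and DESeq2 called 1087. Of the 10 activity genes, Bdnf alone had an unadjusted p under 0.05, a smaller share than that of all genes. Bdnf had 42.6, 52.1 and 41.7 CPM in the 3 female Ntg mice and 29.1, 25.5 and 25.2 CPM in the 3 female P301S mice, so the groups did not overlap. Among females the genotypes were also apart for Fos, with P301S mice higher, and for 32.5% of all tested genes, so 2 of these 10 genes is no more than that share. In males it had 38.2, 34.7, 44.6 and 31.4 CPM in Ntg mice and 33.4, 41.8 and 55.4 CPM in P301S mice, which overlapped. The log2 fold change was -0.77 in females (SE 0.18, adjusted p = 0.0557) and 0.23 in males (SE 0.16, adjusted p = 0.516).

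The difference between the sexes for Bdnf, males minus females, was 1.0 (SE 0.24, adjusted p = 0.104) by edgeR and 0.98 (adjusted p = 0.00867) by DESeq2. Without P301S mouse 29 it was called by edgeR too (1.16, adjusted p = 0.0180), as was Fosb in the opposite direction (-0.91, adjusted p = 0.0439), in a fit that called 1648 genes. For Fos the difference between the sexes was 0.12 (SE 0.87), and its log2 fold change was 1.13 in females and 1.25 in males.

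**Figure D4:**
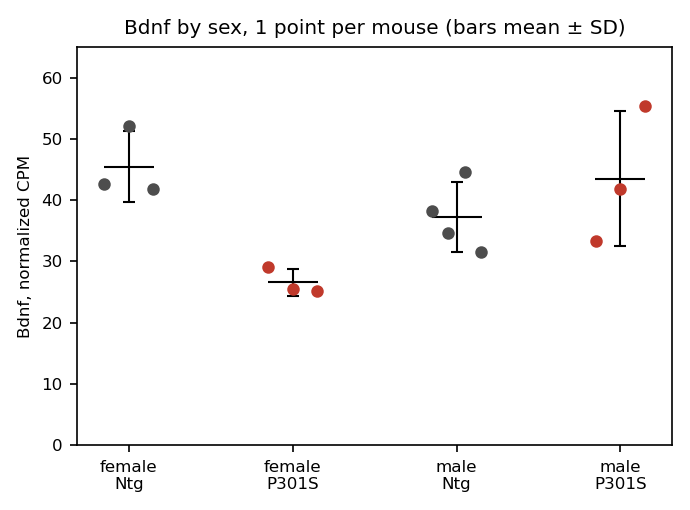
Normalized CPM of Bdnf (y axis, from 0) in female and male Ntg and P301S mice, 1 point per mouse, with the mean and SD as bars. The 3 female P301S mice lie below the 3 female Ntg mice, and the male groups overlap.

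Cultured microglia showed which of these genes are used in a brain cell type without synaptic firing. The cells came from cortices of newborn WT and Cgas KO pups, were grown with GM-CSF, and received vehicle, tau fibrils or HT-DNA, a ligand of the cytosolic DNA sensor cGAS. Their RNA was taken hours after stimulation, so changes within the first minutes were not measured. The study calls the samples of a group biologically independent and does not say whether they came from separate litters, so the tests measure the spread between libraries. Between 17037459 and 25174764 reads were counted per library, and 13675 genes were tested. The 7 neuron markers summed to at most 2.24 CPM and the 7 microglial markers to at least 2010 CPM. Cgas was at 23.2 ± 4.21 CPM in WT and 4.93 ± 0.748 CPM in Cgas KO cells with vehicle (SD, n = 3 each).

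Fos, Fosb, Junb, Egr1, Egr2, Nr4a1 and Dusp1 passed the filter on low counts in microglia. Arc, Npas4 and Bdnf did not, with at most 13, 10 and 2 reads in any of the 18 libraries. With HT-DNA all 7 tested genes were called in WT cells, 6 higher and Egr2 lower, where 47.4% of all tested genes were called. Fos was at 21.3, 21.6 and 21.1 CPM with vehicle and 62, 63.7 and 67.9 CPM with HT-DNA (log2 fold change 1.6, SE 0.07, adjusted p = 2.19e-16). Dusp1 was at 50.5, 47.2 and 44.2 CPM with vehicle and 133, 137 and 142 CPM with HT-DNA (1.54, SE 0.06, adjusted p = 8.00e-18). For both genes every HT-DNA library lay above every vehicle library.

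Nr4a1 had few reads, with 1.02, 1.08 and 1.03 CPM with vehicle and 2.83, 3.66 and 4.21 CPM with HT-DNA (log2 fold change 1.77, SE 0.28, adjusted p = 4.83e-06). Fosb rose by 1.16 (SE 0.29, adjusted p = 0.00161), Junb by 0.65 (SE 0.05, adjusted p = 3.93e-11) and Egr1 by 0.59 (SE 0.14, adjusted p = 0.000940). Egr2 went the other way, from 48.6 ± 2.11 CPM to 28.8 ± 2.19 CPM (SD, n = 3 each, log2 fold change -0.75, SE 0.06, adjusted p = 1.50e-11). The median of the 7 genes was 1.16 and that of all tested genes -0.03.

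With tau fibrils 3 of the 7 genes were called in WT cells, all higher, where 28.0% of all tested genes were called. Dusp1 rose from 47.3 ± 3.16 to 72.5 ± 1.99 CPM (log2 fold change 0.61, adjusted p = 4.00e-09), Junb from 206 ± 10.7 to 295 ± 9.08 CPM (0.52, adjusted p = 7.66e-09) and Fos from 21.3 ± 0.270 to 28.3 ± 1.48 CPM (0.41, adjusted p = 0.000167, SD, n = 3 each). The log2 fold change of the other 4 was between -0.24 and -0.01, and none of those was called. For comparison, the interferon-induced chemokine Cxcl10 rose by 3.06 with tau and by 3.8 with HT-DNA.

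In Cgas KO cells HT-DNA left 1 of the 7 genes called, Dusp1, where 1.32% of all tested genes were called. Dusp1 was at 29.6, 32.6 and 33.3 CPM with vehicle and 41.1, 44.9 and 37.7 CPM with HT-DNA (log2 fold change 0.37, SE 0.07, adjusted p = 0.00284). Fos had a value of 0.19 (SE 0.08, adjusted p = 0.329). With tau 1 of the 7 was called in Cgas KO cells, Egr1, where 16.7% of all tested genes were called. Egr1 had 49.2, 58.9 and 55.9 CPM with vehicle and 33.3, 49.1 and 45.0 CPM with tau (-0.36, SE 0.10, adjusted p = 0.0115), and it was not called without vehicle replicate 2 (adjusted p = 0.0768), without tau replicate 1 (adjusted p = 0.113) or by DESeq2 (adjusted p = 0.0547).

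The difference between the genotypes was tested directly as an interaction, Cgas KO response minus WT response. For HT-DNA 6 of the 7 genes were called, where 34.0% of all tested genes were called. The interaction was -1.40 for Fos (SE 0.11, adjusted p = 6.83e-11), -1.5 for Fosb (SE 0.44, adjusted p = 0.00908), -0.53 for Junb (SE 0.08, adjusted p = 2.03e-06), -1.6 for Nr4a1 (SE 0.39, adjusted p = 0.00190) and -1.17 for Dusp1 (SE 0.09, adjusted p = 3.41e-11), so the fitted response of these 5 genes was lower in Cgas KO than in WT cells. It was 0.86 for Egr2 (SE 0.08, adjusted p = 6.72e-10), which fell in WT cells and had a log2 fold change of 0.11 (adjusted p = 0.371) in Cgas KO cells. Egr1 had -0.28 (SE 0.17, adjusted p = 0.216). Junb with HT-DNA had a mean of 343 CPM in Cgas KO and 323 CPM in WT cells, from 316 and 206 CPM with vehicle. Its smaller response in Cgas KO cells thus began from a higher level and did not leave it lower.

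For tau 3 of the 7 were called for the interaction, where 6.91% of all tested genes were called. The values were -0.43 for Fos (SE 0.11, adjusted p = 0.0201), -0.57 for Junb (SE 0.08, adjusted p = 7.14e-06) and -0.63 for Dusp1 (SE 0.09, adjusted p = 3.25e-05). Mean Junb with tau was 304 CPM in Cgas KO and 295 CPM in WT cells, so its level was not lower in Cgas KO cells. The tau, HT-DNA and genotype comparisons share their vehicle libraries, so their values are not independent of each other. The call of Fos was lost without WT tau replicate 3, Cgas KO vehicle replicate 2 or Cgas KO vehicle replicate 3, with adjusted p of 0.0623, 0.0608 and 0.0962.

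The starting levels also differed between the genotypes. With vehicle 6 of the 7 genes were called between Cgas KO and WT cells, where 52.0% of all tested genes were called. Egr1 was at 54.7 ± 4.98 CPM in Cgas KO and 10.7 ± 0.305 CPM in WT cells (SD, n = 3 each, log2 fold change 2.36, SE 0.12, adjusted p = 1.96e-15). Egr2 was at 118 ± 3.20 CPM in Cgas KO and 48.6 ± 2.11 CPM in WT cells (1.28, SE 0.05, adjusted p = 1.80e-17). Junb was higher too (0.62, adjusted p = 1.23e-10), as was Nr4a1 (0.71, adjusted p = 0.0465), whereas Dusp1 (-0.57, adjusted p = 3.33e-08) and Fos (-0.28, adjusted p = 0.00566) were lower in Cgas KO cells. Without Cgas KO vehicle replicate 1 Fos was not called (adjusted p = 0.0766), and Nr4a1 was called in 1 of 6 fits that left out a library, with adjusted p up to 0.186. Genotype and culture cannot be told apart in this comparison.

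**Figure D5:**
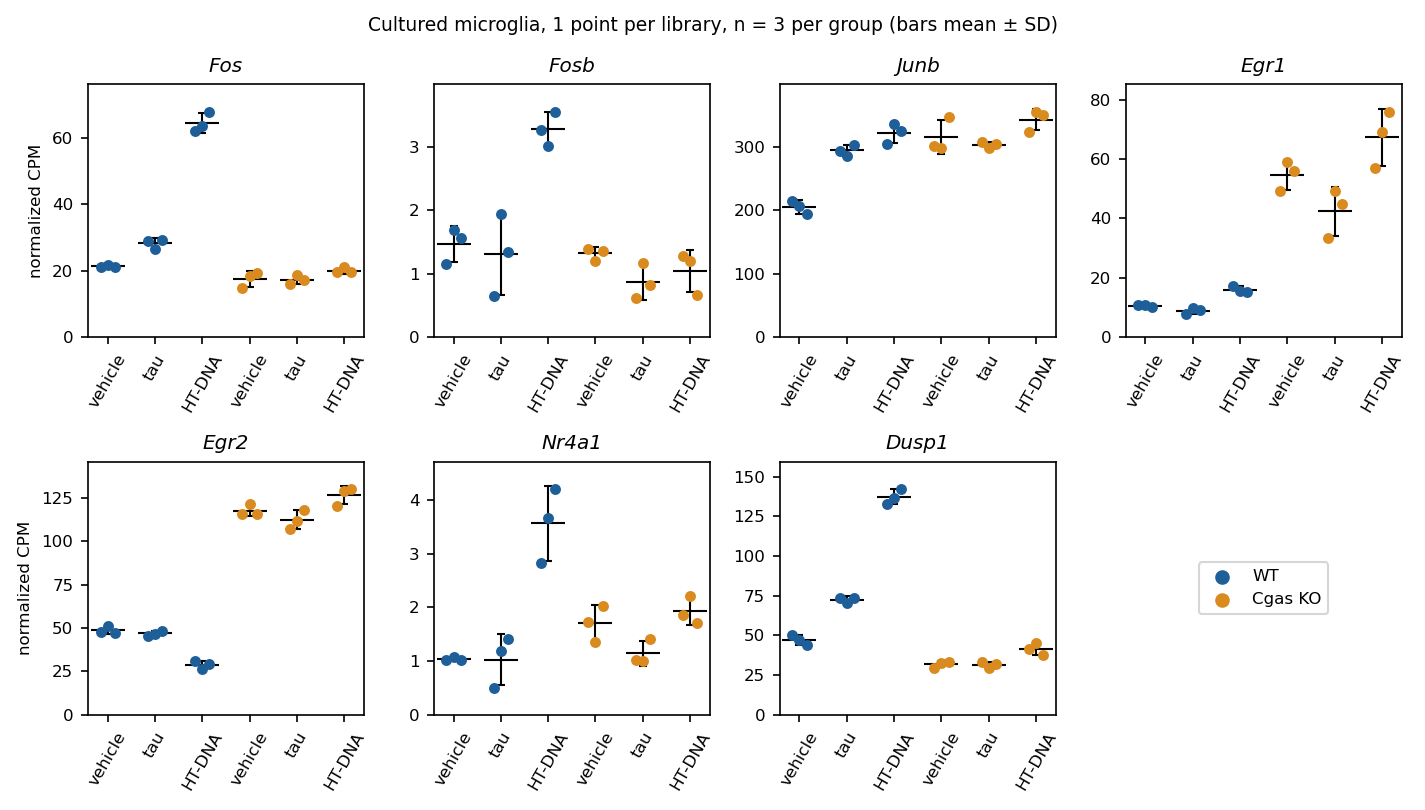
Normalized CPM (y axis, linear from 0, own scale for each gene) of the 7 genes tested in microglia, 1 point per library with the mean and SD as bars, for vehicle, tau and HT-DNA in WT (blue) and Cgas KO (orange) cells. With HT-DNA, WT cells stand above vehicle for every gene but Egr2, and Cgas KO cells stand above WT cells for Egr1 and Egr2 under each treatment.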

How the data were processed

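The deposited tables hold raw read counts per Ensembl gene for 13 hippocampi and 18 microglial libraries, which the authors did not normalize. The aligner and counting tool are not given in the sources used here, and the submitters' processing notes name GRCm38, edgeR and limma. The labels name a Zymo kit and a QuantSeq library, which reads 3′ ends, whereas the methods name RNeasy columns for hippocampi. Symbols were taken from the microglial table.

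Counts were filtered with filterByExpr, scaled by TMM and tested with the quasi-likelihood test of edgeR 4.0.16 in R 4.3.3, with Benjamini-Hochberg adjustment over all genes tested and a threshold of 0.05. Hippocampi were compared by genotype, and microglia in 1 fit of 6 groups. Fold changes come from the fit, and log2 CPM used a prior count of 2. Depth ranged from 17037459 to 35779977 counts, and no replicates agreed within sampling noise. Alternatives were DESeq2 1.42.0, RLE scaling, no filter, covariates, a replicate block, minimum log2 fold changes of 0.5 and 1, the compared groups alone, and leaving out each library. The tests were tried on simulated data.

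The rule for the 10 genes uses no measured value, but the genes and lists were chosen with earlier results of these data known. Named beside the 10 genes are, per list, the called genes or else the 3 with the smallest p, the 8 genes outside the lists most like the 10 across mice, list genes among the 50 most alike, and Mapt, Ddx3y, Cgas and Cxcl10 as checks. Gfap was named after its values were seen. A gene chosen by this rule is not reported here. Likeness was Spearman's rho of log2 CPM with the mean of the 10 after the genotype mean was subtracted.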

Additional observations from a re-analysis of the deposited data

Results flagged for a closer look

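These results were picked out because the response of microglia to a treatment differed between Cgas KO and WT cells by the interaction test of edgeR (adjusted p under 0.05). All values are Cgas KO response minus WT response on the log2 scale, with 3 libraries per group.

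For HT-DNA the interaction was -1.40 for Fos, -1.5 for Fosb, -0.53 for Junb, -1.6 for Nr4a1, -1.17 for Dusp1 and 0.86 for Egr2. For tau it was -0.43 for Fos, -0.57 for Junb and -0.63 for Dusp1. Junb started higher in Cgas KO cells with vehicle, and its mean with HT-DNA or tau was not below that of WT cells. In hippocampi none of 20 groups of mice, 10 genes in Ntg and P301S mice, held a library far enough from the others to be picked out by Dixon's criterion. The criterion sets a single library against its nearest neighbour. Mice that are high together, such as P301S mice 29 and 65 for most of the genes, hide each other from it.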

How the results depend on the processing

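In hippocampi 0 of the 10 genes were called under DESeq2, RLE scaling, no filter on low counts, either covariate or a minimum fold change, and 9 stayed above 0 under DESeq2. Leaving out 1 mouse gave 0 to 1 called (1 without P301S mouse 63). The count over all genes was far less stable, at 249, 911 with DESeq2, 138 with sex and 13 with neuron markers as a covariate. Leaving out a mouse gave 14 (Ntg mouse 35 or 61) to 946 (P301S mouse 43), with 216 without Ntg mouse 55, 462 without P301S mouse 77, 691 without P301S mouse 63 and 16 to 26 without any of the rest. The cause was not tested. The 2 called rapid genes became 4 with DESeq2, 1 with sex and 0 with neuron markers as a covariate, and 0 to 3 when a mouse was left out. Called delayed genes were 0 to 1 and called regulators 0 to 2 when a mouse was left out, and 2 regulators were called by DESeq2. For the sex interaction DESeq2 called 1 of the 10 (Bdnf), and leaving out a mouse gave 0 to 2.

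In microglia a minimum log2 fold change of 1 left 0 genes for tau and 4 for HT-DNA in WT cells, 0 for either in Cgas KO cells, 2 for Cgas KO against WT with vehicle and 0 for the tau interaction. The share of all tested genes beyond that fold change is not given here, so these counts cannot be set against it. For tau in Cgas KO cells DESeq2 called 0, and leaving out a library gave 0 to 1. For HT-DNA in Cgas KO cells 2 were called (Egr1 added) without the filter and 2 with only the compared groups fitted. Nr4a1 between genotypes was lost without the filter (0.73, adjusted p = 0.0589). Values near 0 changed sign when a library was left out: for tau in WT cells Nr4a1 (-0.29 to 0.31) and Fosb (-0.54 to 0.18), in Cgas KO cells Fos (-0.13 to 0.0595), Junb (-0.0934 to 0.0190) and Dusp1 (-0.0658 to 0.0298), and for the tau interaction Egr2 (-0.0600 to 0.0205) and Egr1 (-0.24 to 0.0229).

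Microglial libraries with the same replicate number did not deviate together (correlations from -0.085 to 0.082 over 45 pairs). Whether they shared a litter or a culture is not stated. With the replicate block the counts of called genes stayed at 3 and 7 in WT cells for tau and HT-DNA, 1 and 1 in Cgas KO cells, 6 between genotypes, and 3 and 6 for the interactions. With 6 and 7 mice, the intervals of the 10 genes leave differences undetected at this spread. Counting error is a small part of that spread, with at least 39 reads per gene and mouse.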
